A study of Homo sapiens with 32 samples.

Results

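The regions described here are intervals of the human genome that carried uracil enrichment after both thymidylate synthase inhibiting drugs and with both mismatch repair states of the HCT116 colorectal carcinoma line. They were chosen by the region calls themselves: a base was taken where the merged region files of 5FdUR_UGI, 5FdUR_UGI_MMR, RTX_UGI and RTX_UGI_MMR all held it, adjacent bases were joined, and intervals of at least 1 kb on chromosomes 1 to 22 were kept. This gave 12882 shared intervals with 45.6 Mb in all, or 1.65% of the known autosomal bases, beside 162966 separate runs of bases that were called in any of the 4 conditions. Because the calls of the drug-treated samples selected these intervals, their coverage and log2 values in those samples are given below as a description, and tests were made only in non-treated libraries and in replicates that took no part in the choice.

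All HCT116 samples of the comparison came from 2 biological replicates per condition. WT cells carried no inhibitor and received no drug. NT_UGI cells expressed UGI, a phage protein that blocks uracil-DNA glycosylase, and received no drug. For UGI expression, the paper describes stable lines with a retroviral construct that also encodes EGFP, by which cells were sorted, and also transient transfection. The 5FdUR_UGI cells also expressed UGI and were grown for 48 h with 5-fluoro-2′-deoxyuridine (5FdUR) at 20 µM, and RTX_UGI cells expressed UGI and were grown for 48 h with raltitrexed (RTX) at 100 nM. These cells are deficient in mismatch repair (MMR), whereas NT_UGI_MMR, 5FdUR_UGI_MMR and RTX_UGI_MMR are the same treatments of HCT116 cells with an added chromosome 3 that restores MMR through hMLH1. All drug-treated samples thus also carried UGI, and UGI without a drug is seen only in NT_UGI and NT_UGI_MMR. K562, a chronic myelogenous leukemia line, gave 1 non-treated library, which is printed without a test.

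In U-DNA-Seq, sheared genomic DNA is pulled down with ΔUNG, a catalytically inactive uracil-DNA glycosylase that still binds uracil, and is sequenced beside its input. The paper states that the method also detects fluorouracil in DNA, and that 5FdUR leads to incorporation of its own fluorinated nucleotide. In 5FdUR_UGI and 5FdUR_UGI_MMR, what is called uracil enrichment here can thus include fluorouracil, which the regions do not tell apart from uracil. Uracil enters DNA through incorporation of dUMP in place of dTMP at replication and through deamination of cytosine. UNG removes it as the first step of base excision repair, and UGI prevents this step. Both drugs lower the dTTP supply, 5FdUR after conversion to a nucleotide that traps thymidylate synthase and RTX as an antifolate inhibitor of the same enzyme, so that dUTP competes more often as a substrate of the polymerases. MMR recognises mismatches and can also process lesions that arise from 5-fluorouracil in DNA.

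The data are regions where pulled-down DNA exceeded input DNA. Both coverages were smoothed over 5 kb, their log2 ratio was taken for every bin of 100 bp, and bins above a threshold that the authors set for each file formed the regions. Each region has a single log2 value. A log2 value given below for bases, intervals or genes is that of the regions holding them, which can be longer. The lowest log2 value was 0.180 in the merged 5FdUR_UGI file, 0.140 in 5FdUR_UGI_MMR, 0.25 in RTX_UGI and 0.260 in RTX_UGI_MMR. The 4 merged files were close in length, with 507 to 511 Mb on the autosomes, and 8.93% to 8.98% of each lay in the shared intervals. The region files hold no read counts, so that no counting interval is given here.

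To show what DNA the intervals hold, 300 bases near the centre of 2 of them and of a contrasting locus follow, 5′ to 3′ on the plus strand of GRCh38, with each CpG in capitals. The first lies in the interval of at least 10 kb with the highest GC content (chr1:2517451-2517750) and the second in the one with the lowest (chr10:79891051-79891350). The third is from the longest run that was called in all 6 non-treated libraries and in none of the 4 merged drug files (chr21:9918151-9918450).
Highest GC: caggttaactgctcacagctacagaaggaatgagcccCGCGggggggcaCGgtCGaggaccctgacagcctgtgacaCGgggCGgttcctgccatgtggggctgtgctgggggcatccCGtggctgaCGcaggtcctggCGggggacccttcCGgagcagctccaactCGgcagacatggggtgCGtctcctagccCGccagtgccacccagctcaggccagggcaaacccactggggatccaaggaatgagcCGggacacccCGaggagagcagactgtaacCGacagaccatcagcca
Lowest GC: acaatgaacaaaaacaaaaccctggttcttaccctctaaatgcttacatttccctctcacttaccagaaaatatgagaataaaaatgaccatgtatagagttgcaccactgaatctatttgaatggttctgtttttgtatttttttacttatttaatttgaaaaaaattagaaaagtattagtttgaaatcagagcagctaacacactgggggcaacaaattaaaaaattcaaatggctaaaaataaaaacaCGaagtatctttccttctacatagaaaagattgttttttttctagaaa
Called without drug: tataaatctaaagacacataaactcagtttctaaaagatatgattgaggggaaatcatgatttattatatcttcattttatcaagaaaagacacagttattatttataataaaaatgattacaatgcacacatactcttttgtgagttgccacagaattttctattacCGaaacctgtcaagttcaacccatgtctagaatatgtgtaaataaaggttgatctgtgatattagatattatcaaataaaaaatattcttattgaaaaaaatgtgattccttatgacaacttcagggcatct
The highest GC stretch had 16 CpG and 66.0% GC, and its interval of 12600 bp lay wholly inside PANK4, a gene of the pantothenate kinase family. The lowest GC stretch had 1 CpG and 29% GC, from an interval of 11100 bp with 34.9% GC that was 59.0 kb from the nearest start of a protein-coding gene. This last interval was unlike most others in that the non-treated libraries called 3.6% to 64% of it. The contrasting stretch had 1 CpG and 27.3% GC, from a run of 22900 bp.

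The shared intervals were short and clustered. Their median length was 2400 bp, with quartiles of 1500 and 4400 bp, a 90th percentile of 7000 bp and a highest value of 54200 bp. Intervals of at least 5 kb numbered 2710, or 21.0% of all, and held 50.6% of the shared bases, and 609 intervals reached 10 kb. The median gap to the next interval was 7.5 kb, and 40% of the gaps were at most 5 kb. When intervals were joined over gaps of at most 5 kb, 7734 clusters resulted, of which 2703 held more than 1 interval. On a larger scale, 1643 of 2765 windows of 1 Mb (59.4%) had no shared interval, and 169 windows (6.11%) held 50% of the shared bases. The densest window was at 14 to 15 Mb of chromosome 3, with 30.5% of its bases in shared intervals.

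The length limit did not fall at a natural break. There were 893 runs of 900 bp, just outside, and 762 runs of 1000 bp, just inside. The mean log2 value of the regions that held runs of 900 and of 1000 bp was 0.400 and 0.396 in merged 5FdUR_UGI. It was 0.205 and 0.204 in 5FdUR_UGI_MMR, 0.375 and 0.372 in RTX_UGI, and 0.382 and 0.385 in RTX_UGI_MMR. GC content was 46.1% outside and 45.8% inside. With runs of any length, the bases called in all 4 conditions came to 52.3 Mb.

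The condition that most often set the limits of an interval was 5FdUR_UGI_MMR. Of 25764 interval edges, 54.2% were places where 5FdUR_UGI_MMR alone ended, against 20.6% for RTX_UGI, 18.2% for RTX_UGI_MMR and 5.66% for 5FdUR_UGI. At 1 kb outside an edge, 93.3% of positions were still called in 5FdUR_UGI, 82.9% in RTX_UGI_MMR, 81.0% in RTX_UGI and 53.3% in 5FdUR_UGI_MMR. Of the 209 Mb called in the other 3 conditions, 25.1% were called in 5FdUR_UGI_MMR, while 90.1% of the 58.1 Mb called without regard to 5FdUR_UGI were called there too. Over all known autosomal bases, 5FdUR_UGI_MMR called 18.4% and 5FdUR_UGI 18.5%. In windows of 44% to 46% GC, these shares were 31.9% and 32.8%. The part of the 209 Mb not called in 5FdUR_UGI_MMR had 45.9% GC. The part of GC content in these overlaps was not tested. Leaving 5FdUR_UGI_MMR out of the rule gave 30704 intervals with 197 Mb, the largest effect of leaving out any 1 of the 4 conditions. The overlap of 5FdUR_UGI_MMR with RTX_UGI was 2.80% of the known autosomal bases and with RTX_UGI_MMR 3.72%, beside 13.7% between RTX_UGI and RTX_UGI_MMR. With 5FdUR_UGI, it was 8.37%.

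The mean log2 value of the regions that held the shared bases was 0.447 in merged 5FdUR_UGI against 0.358 over all its autosomal regions. It was 0.418 against 0.400 in RTX_UGI_MMR. It was 0.236 against 0.238 in 5FdUR_UGI_MMR and 0.414 against 0.434 in RTX_UGI. The regions that held shared bases therefore stood above the mean of all regions in 5FdUR_UGI and RTX_UGI_MMR. They stood below it in 5FdUR_UGI_MMR and RTX_UGI, and each difference was less than 0.1 on the log2 scale.

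In single libraries, the merged calls were recovered unevenly. The shares of the shared bases called were 97% and 82.5% in 5FdUR_UGI replicates 1 and 2, 85.3% and 55.3% in 5FdUR_UGI_MMR, 83.9% and 93.6% in RTX_UGI, and 87.3% and 90.9% in RTX_UGI_MMR. All 8 libraries thus held most of the shared bases, and 5FdUR_UGI_MMR replicate 2 stood apart below the others. Of the shared bases, 20.2% were called in all 8 libraries, 44.3% in exactly 7 and 27.4% in exactly 6. Where 1 library lacked a base, it was 5FdUR_UGI_MMR replicate 2 for 50.6% of such bases and 5FdUR_UGI replicate 1 for 0.904%. No interval was called over its whole length in each of the 8 libraries, whereas single libraries called between 2902 (22.5%) and 11477 (89.1%) of the intervals whole. Edges of the intervals lie where a merged file fell to its limit, and each library had its own limit. These counts of whole intervals therefore depend on the limits set and are no measure of reproducibility by themselves.

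The same rule was next applied to the drug-treated replicate 1 files. The resulting 14842 intervals (45.8 Mb) were examined in replicate 2, which took no part in this choice. Of their bases, 74.5% were called in 5FdUR_UGI replicate 2, 31.7% in 5FdUR_UGI_MMR, 87.2% in RTX_UGI and 85.4% in RTX_UGI_MMR. The 6 non-treated libraries called between 0.750% and 0.985%, so that the groups did not overlap. Relative to the share of the autosomes that a library called, the mean log2 value was 1.80 ± 0.667 (SD, n = 4) with drug and -3.70 ± 0.148 (SD, n = 6) without. The difference of 5.50 on the log2 scale was larger than the spread between libraries (two-sided exact permutation test, adjusted p = 0.00476, the smallest the test allows). Without 5FdUR_UGI_MMR replicate 2, which was 1.74-fold over its autosomal share, the difference was 5.83. The intervals were still chosen on drug-treated cells of the same conditions, and the 4 libraries with drug came from different conditions. Any recurrence of calls between replicates thus gives a higher share with drug. The test shows that calls recurred, and the size of the difference is not free of the choice.

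The 8919 intervals (23.4 Mb) chosen on replicate 2 files behaved alike in replicate 1, under the same limit. They were called at 95.1% in 5FdUR_UGI, 63.9% in 5FdUR_UGI_MMR, 70.7% in RTX_UGI and 74.6% in RTX_UGI_MMR, and at 0.990% to 1.65% in the non-treated libraries. The mean log2 values were 2.05 ± 0.243 (SD, n = 4) and -3.22 ± 0.243 (SD, n = 6), with a difference of 5.28 (two-sided exact permutation test, adjusted p = 0.00476). The position of single intervals was less stable than this contrast. The intervals of the 2 replicate sets had 7.11 Mb in common, which was 15.5% of the replicate 1 and 30.4% of the replicate 2 bases. Of the shared bases of the merged files, 56.1% were in replicate 1 intervals and 33.1% in replicate 2 intervals.

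Without drug, the shared intervals were seldom called. The shares were 0.977% and 1.09% in WT replicates 1 and 2, 0.760% and 1.07% in NT_UGI, 0.865% and 1.01% in NT_UGI_MMR, and 0.938% in K562. The other autosomal bases were called at 11.6% ± 0.147 (SD, n = 6) in the non-treated HCT116 libraries. The log2 ratio of the 2 shares was -3.61 ± 0.188 (SD, n = 6), negative in 6 of 6 libraries (two-sided exact sign-flip permutation test, adjusted p = 0.0391 over 5 tests, from the smallest p the test allows, 0.0312). In all, 97.3% of the shared bases were in no region of the 6 non-treated libraries, beside 74.7% of all known autosomal bins. Of the 12882 intervals, 11932 (92.6%) were touched by none of these libraries. The values of WT, NT_UGI and NT_UGI_MMR overlapped one another.

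Non-treated calls grew rarer with each further drug condition that held a base. In WT replicate 1, bases called in 0, 1, 2, 3 and 4 drug conditions were called at 17.1%, 4.58%, 2.84%, 1.41% and 1.06%. In the other 5 non-treated HCT116 libraries the order was the same. Bases called in 4 conditions were called less often without drug than bases called in 1 condition, by -2.12 ± 0.102 on the log2 scale (SD, n = 6), in 6 of 6 libraries (two-sided exact sign-flip permutation test, adjusted p = 0.0391). GC content was 46.6% and 43.1% in these classes, and its part in the difference was not tested. The number of conditions was also tied to which conditions these were. Of the 461 Mb called in 1 condition, 255 Mb were called in 5FdUR_UGI_MMR only. Of the 209 Mb called in 3 conditions, 156 Mb were those not called in 5FdUR_UGI_MMR. The part of single conditions in the fall was not tested.

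The contrast with other bases was smaller at equal base composition. Non-treated regions are AT rich, with a GC content of 33.3% to 33.4% in the merged files of WT, NT_UGI and NT_UGI_MMR, whereas the shared intervals had 46.8% and the known autosomal bases 41.0%. When the other bases were weighted to the GC content of the shared intervals in 5 kb windows, they were called at 1.18% ± 0.109 without drug, beside 0.961% ± 0.125 for the shared intervals (SD, n = 6). The log2 ratio was then -0.301 ± 0.0872, negative in 6 of 6 libraries (two-sided exact sign-flip permutation test, adjusted p = 0.0391), and -0.223 in K562. Its direction depended on how the intervals were defined. It was 0.187 for intervals of at least 5 kb, 0.396 for bases in all 8 replicate files and 0.273 for regions with a log2 value of at least 0.25, and it was -1.72 with GC content in windows of 1 kb. Within single GC classes the order also changed: the mean non-treated share was 7.35% in shared intervals and 12% outside at 36% to 38% GC, but 0.810% and 0.519% at 42% to 44%.

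The shared intervals took up 0.0193% of the bases in windows of 30% to 32% GC, 1.37% at 40% to 42% and 5.95% at 52% to 54%, and then fell to 2.87% at 60% to 62% and 0.777% at 66% to 68%. In merged 5FdUR_UGI, coverage at 60% to 62% GC was 57.9% and in RTX_UGI 49.8%, whereas it was 26.5% in 5FdUR_UGI_MMR and 22.9% in RTX_UGI_MMR. The shared share was below the autosomal 1.65% from 64% GC upward, where 5FdUR_UGI_MMR and RTX_UGI_MMR were also below their autosomal share of 18.4%. Among single intervals, GC content ran from 37.2% at the 5th to 56.7% at the 95th percentile with a median of 45.7%, and 81.6% of the intervals were above the autosomal GC content.

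The shared intervals were GC rich without a high CpG ratio. The number of CpG over that expected from the C and G content was 0.234 in the shared intervals and 0.241 over the autosomes. It was 0.252, 0.273 and 0.261 for bases called in 1, 2 and 3 conditions, whose GC content was 43.1%, 45.1% and 45.9%. The closest comparison is with the 156 Mb called in 5FdUR_UGI, RTX_UGI and RTX_UGI_MMR but not in 5FdUR_UGI_MMR, which had 45.9% GC, a CpG ratio of 0.268 and 14.1 CpG per kb, beside 12.8 CpG per kb in the shared intervals. These are properties of the sequence chosen and were not tested.

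Genes covered a smaller share of the shared intervals than of the genome. Of the shared bases, 39.4% lay in protein-coding genes, 13.5% in long non-coding RNA genes outside them and 47.1% in neither, beside 45.4%, 15.3% and 39.4% of all known autosomal bases. Weighting the other bases to the same GC content widened this gap, to 51.7% in protein-coding genes. The shared intervals were nevertheless near genes: 67.5% of their bases lay within 50 kb of the start of a protein-coding gene, against 53.1% of the other bases at the same GC content, and 19.9% against 20.0% lay within 10 kb. Bases that touch an exon made up 5.47% of the shared intervals and 3.66% of the autosomes. They made up 6.80% of the bases called in 5FdUR_UGI, RTX_UGI and RTX_UGI_MMR only. In merged 5FdUR_UGI, 5FdUR_UGI_MMR, RTX_UGI and RTX_UGI_MMR they were 5.85%, 3.65%, 7.78% and 7.26%. Conditions of a single drug differed in the share that lay in protein-coding genes. Bases called in RTX_UGI and RTX_UGI_MMR only were in protein-coding genes at 73.6%, and those called in 5FdUR_UGI and 5FdUR_UGI_MMR only at 37.8%, and the shared bases, with 39.4%, were closer to the latter.

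Within the shared intervals, bases inside protein-coding genes were called less often without drug than bases outside them. The shares were 0.627% ± 0.115 inside and 1.18% ± 0.144 outside (SD, n = 6), and the log2 ratio was -0.919 ± 0.158, negative in 6 of 6 libraries (two-sided exact sign-flip permutation test, adjusted p = 0.0391). The ratio was -1.76 for intervals of at least 5 kb, -2.20 for bases in all 8 replicate files and -1.96 with merged log2 values of at least 0.25. GC content was 48.1% inside and 45.9% outside, and its part in the difference was not tested. No difference by interval length passed the test. Intervals of at least 5 kb were called at 0.981% ± 0.119 and shorter ones at 0.939% ± 0.147, a log2 ratio of 0.07 ± 0.139 (SD, n = 6), positive in 2 of 6 libraries (two-sided exact sign-flip permutation test, adjusted p = 0.5). This last comparison passed the threshold, with 0.551 and 0.401, when log2 values of at least 0.25 in the merged or 0.35 in the non-treated files were required.

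Around the starts of protein-coding genes, the shared intervals dipped. They held 3.05% of the bases 4 to 5 kb before a start, 1.93% in the first kb of the gene and 2.95% at 4 to 5 kb inside. The share was 3.03% at 7 to 8 kb on both sides of the start, and at 22 to 23 kb it was 3.0% before the start and 2.40% inside the gene. Bases called in the other 3 conditions without 5FdUR_UGI_MMR dipped in the same way, from 15.6% to 9.73%, whereas the merged 5FdUR_UGI_MMR regions as a whole did not, with 17.8% and 18.9% at these positions.

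Promoters inside the shared intervals were poor in CpG. RefSeq promoter sequences of 300 bases (GRCh38.p14, 250 before and 50 after the start) were found for 14616 of 19111 autosomal protein-coding genes, with 20584 sequences in all. In 292 genes (2.0%), a promoter lay wholly in a shared interval. The median number of CpG was 6 in these 331 sequences and 21 in all promoters. It was 23, 16, 21 and 15 in promoters wholly inside the merged regions of 5FdUR_UGI, 5FdUR_UGI_MMR, RTX_UGI and RTX_UGI_MMR, so that none of the 4 drug conditions alone had as few. Promoters inside the merged regions of WT, NT_UGI and NT_UGI_MMR were poorer still, with a median of 2 CpG and with 15 or more CpG in 1.66% to 3.90%. Promoters with at least 15 CpG were 27.2% of those in shared intervals and 63.3% of all. The letters GGGCGG, the core of a GC box, were present on either strand in 37.2% of promoters in shared intervals and in 57.1% of all, and TATAAA, the letters of a TATA box, in 15.1% and 9.50%. These motifs have no letter in common, so that matches to one cannot overlap matches to the other. The promoters of 3 of the most covered genes show the range, 2 of them near the median of this CpG-poor group and the third far above it, printed 5′ to 3′ along the gene with each CpG in capitals.
CACNA1S promoter (chr1:201112377-201112676, minus strand): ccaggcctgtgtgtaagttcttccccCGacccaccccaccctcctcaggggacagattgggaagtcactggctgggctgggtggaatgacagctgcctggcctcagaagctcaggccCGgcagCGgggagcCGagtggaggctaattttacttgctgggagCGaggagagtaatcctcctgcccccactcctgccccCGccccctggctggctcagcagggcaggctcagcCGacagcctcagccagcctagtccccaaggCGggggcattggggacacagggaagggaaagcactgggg
SEMA5B promoter (chr3:123028556-123028855, minus strand): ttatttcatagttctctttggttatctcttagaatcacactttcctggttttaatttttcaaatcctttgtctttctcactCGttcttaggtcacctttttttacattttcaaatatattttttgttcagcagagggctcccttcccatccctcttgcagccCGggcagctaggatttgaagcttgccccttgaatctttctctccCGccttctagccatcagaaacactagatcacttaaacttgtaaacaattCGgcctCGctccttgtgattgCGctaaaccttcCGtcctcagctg
AFAP1L2 promoter (chr10:114404453-114404752, minus strand): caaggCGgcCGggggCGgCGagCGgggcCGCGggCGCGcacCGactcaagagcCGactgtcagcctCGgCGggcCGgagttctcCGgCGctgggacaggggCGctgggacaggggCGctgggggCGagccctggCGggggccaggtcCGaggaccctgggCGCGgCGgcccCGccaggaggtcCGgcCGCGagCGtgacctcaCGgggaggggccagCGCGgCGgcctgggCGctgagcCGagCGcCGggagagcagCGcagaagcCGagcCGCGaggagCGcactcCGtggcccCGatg
The CACNA1S promoter held 8 CpG and the SEMA5B promoter 7, while the AFAP1L2 promoter held 44 with a GC content of 80.0%.

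The 3 genes of these promoters were among those most covered. CACNA1S, the pore-forming subunit of the calcium channel of skeletal muscle, had 99% of its 72940 bp in shared intervals. Its coverage in the 8 drug-treated libraries was 58.4% at the lowest (5FdUR_UGI_MMR replicate 2), 99.9% at the median and 100% at the highest, and 0% in all 6 non-treated libraries. The merged log2 value of the regions that held its shared bases was 0.575 in 5FdUR_UGI, 0.262 in 5FdUR_UGI_MMR, 0.587 in RTX_UGI and 0.528 in RTX_UGI_MMR.

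SEMA5B, which encodes a semaphorin with a role in axon guidance, had 89.1% of its bases in shared intervals. Its coverage was 60.7%, 99.1% and 100% at the lowest, median and highest drug-treated library, and 0% in every non-treated one. AFAP1L2, an adaptor protein of the actin filament-associated family, had 88.3% in shared intervals, with 77.3%, 89.7% and 100% in the drug-treated and again 0% in the non-treated libraries. Its log2 value in merged 5FdUR_UGI, 0.621, was the highest of the 15 genes with the most shared bases.

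Of 19111 autosomal protein-coding genes, 2282 (11.9%) were touched by a shared interval and 279 (1.46%) were covered by 50% or more. The touched genes were long, with a median of 45.3 kb beside 27.9 kb for all genes. The gene with the most shared bases was CDH23, a cadherin of the tip links of inner ear hair cells, with 173000 bp or 41.3% of its length. Its coverage in drug-treated libraries was 56.5%, 77.9% and 98.5% at the lowest, median and highest, and in non-treated ones 0%, 0.191% and 0.954%. The readthrough gene LINC02210-CRHR1, which includes the corticotropin-releasing hormone receptor CRHR1, followed with 139900 bp (64.9%). PAX5, a transcription factor of the B cell lineage, had 129500 bp (64.4%) and ADCY5, an adenylyl cyclase, had 108400 bp (64.9%).

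The other genes among the 10 with the most shared bases, beside SEMA5B and AFAP1L2, were PEBP4 of the phosphatidylethanolamine-binding family with 97600 bp, ANK1, the ankyrin of red cell membranes, with 90400 bp, SLIT1, a ligand in axon guidance, with 89300 bp, and NFASC, the adhesion molecule neurofascin, with 86200 bp. The highest value of a non-treated library in these 10 genes was 2.41% of the gene, in PEBP4. The lowest drug-treated library was 5FdUR_UGI_MMR replicate 2 in 6 of the 10 genes, RTX_UGI replicate 1 in 3 (PAX5, ADCY5 and NFASC) and RTX_UGI_MMR replicate 1 in ANK1. The merged log2 value of the 5FdUR_UGI regions that held the shared bases was above that of RTX_UGI in 9 of these genes. It was equal to it, at 0.532, in SEMA5B. Over all shared bases, the value was likewise higher in 5FdUR_UGI, with 0.447 against 0.414 in RTX_UGI, so that the order is not particular to these genes.

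Among the 10 longest intervals, 4 touched no protein-coding gene. The longest was at chr15:73807901-73862100, 54200 bp with 49.1% GC, and 11.5 kb from the nearest start of a protein-coding gene. Its coverage was 100% and 95.2% in 5FdUR_UGI, 98.3% and 72.0% in 5FdUR_UGI_MMR, 76.4% and 98.5% in RTX_UGI, and 97.2% and 99.8% in RTX_UGI_MMR, with 0% in all non-treated libraries. The fourth longest, at chr15:73752801-73795600, lay in the same cluster of 211400 bp, the longest of all, of which 84.3% was in shared intervals and which touched CD276, an immune checkpoint protein of the B7 family, INSYN1, a protein of inhibitory synapses, and TBC1D21. The second longest, chr10:114352701-114406000 with 53300 bp, lay at 97.7% inside AFAP1L2 and held its start. The third, chr5:172551701-172594800 with 43100 bp, overlapped the long non-coding RNA gene LINC01944, 46.5 kb from a protein-coding start.

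The intervals at chr1:201082701-201123700 (41000 bp) and chr1:201031501-201067700 (36200 bp) both overlapped CACNA1S, and the longer one also touched ASCL5, a gene of the achaete-scute family. The seventh, chr7:30662301-30701700, lay wholly in genes and touched INMT, an indolethylamine methyltransferase, and CRHR2, the second receptor of corticotropin-releasing hormone. The eighth, chr3:122960301-122999200, was wholly intragenic in SEMA5B, with 3.86% of its bins touching an exon, and the ninth, chr7:26515201-26553500, was 223 kb from any protein-coding start. The fifth, chr8:73341801-73383400 with 41600 bp, touched no protein-coding gene. In each of these 10 intervals, 5FdUR_UGI_MMR replicate 2 was the lowest drug-treated library, with 51.5% to 82.2%, and all 6 non-treated libraries and K562 were at 0%.

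The other long clusters were 195800 bp at chr8:100322901-100518700 with RNF19A, a ubiquitin ligase, and ANKRD46, 177400 bp at chr15:89340801-89518200 with RHCG, an ammonia transporter, 125800 bp at chr11:17392401-17518200 with ABCC8, the sulfonylurea receptor of the ATP-sensitive potassium channel, and USH1C, the scaffold protein harmonin, and 119900 bp at chr3:122922101-123042000 with SEMA5B. Between 78.5% and 92.1% of these 4 clusters lay in shared intervals. Their coverage in non-treated libraries was at most 2.15%.

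A few shared intervals were also called without drug. In 4 intervals each of the 6 non-treated libraries called the whole length, and in 16 each called at least 50%. These 16 intervals, singled out after their values were seen, came to 0.108 Mb with 41.0% GC, and 13.9% of their bases were in protein-coding genes. At chr16:10700201-10710400, 10200 bp with 39.9% GC, the non-treated libraries called 98.0% to 100%, K562 98.0%, and the drug-treated libraries 14.7% (5FdUR_UGI_MMR replicate 2) to 100%. The longest, chr8:29296901-29332500 with 35600 bp, was called at 53.7% to 61.5% without drug, 56.7% in K562 and 40.2% to 100% with drug.

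The share of a chromosome in shared intervals was highest on chromosome 11 with 2.53% (899 intervals) and chromosome 1 with 2.51% (1538 intervals), and lowest on chromosome 19 with 0.638% (128 intervals) and chromosome 21 with 0.769% (119 intervals). Chromosome 19 was the most GC rich with 47.9% and had the most protein-coding genes, 25.3 per Mb. Its coverage was 19.7% in merged 5FdUR_UGI, 13.1% in 5FdUR_UGI_MMR, 35.8% in RTX_UGI and 20.4% in RTX_UGI_MMR, so that it was low in shared intervals although both RTX conditions covered more of it than of the autosomes as a whole (18.5% and 18.4%). Chromosome 21 was covered at 14.8%, 14.4%, 10.5% and 8.28% in the same order. By the same rule, chromosome X, which was not part of the choice, had 168 intervals with 0.259% of its known bases.

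Gene families were examined by 14 lists, each read against the 11.9% of all autosomal protein-coding genes that were touched. The lists of genes that act on nucleotides, uracil or mismatches are short, and no difference from this background is read from their counts. Of 30 genes of thymidylate, folate and dUTP metabolism, 2 (6.67%) were touched, SLC46A1, the proton-coupled folate transporter, at 31.0% of its length and UCK2, a uridine-cytidine kinase, at 2.26%. Of 19 genes of uracil base excision repair, 2 (10.5%) were touched, PARP1, a sensor of strand breaks, at 21.2% and UNG, the glycosylase that UGI blocks, at 5.46%. Of 19 mismatch repair genes, 1 (5.26%) was touched, MSH6, a subunit of the MutSα mismatch sensor, at 8.20%.

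PARP1 was called at 1.04% in its lowest and 85.9% in its median drug-treated library, UNG at 12.3% and 54.6%, MSH6 at 28.4% and 40.2%, SLC46A1 at 28.6% and 69.4%, and UCK2 at 16.1% and 27.6%. The highest non-treated library had 2.18% of MSH6 and 0% of the other 4. These genes are listed because a shared interval touched them, so that their calls with drug follow from the choice of the intervals. Of all shared intervals, 92.6% were likewise touched by no non-treated library.

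The list with the largest touched share was that of Wnt ligands and Frizzled receptors, with 8 of 29 genes (27.6%) and 6.72% of their bases, beside 1.43% of the bases of all protein-coding genes. WNT3A and WNT9A, both touched, lay close together on chromosome 1, and the count was not tested against the background. WNT11 was in shared intervals at 51.0%, the receptor FZD4 at 42.9% and WNT4 at 42.7%. All were at 0% in every non-treated library, and 92.6% of all shared intervals were likewise touched by none. Of 39 HOX genes, 6 (15.4%) were touched, led by HOXC13 with 70.5%, HOXB13 with 63.4% and HOXC12 with 48.8%. Among these 6, HOXC13, HOXC12, HOXC4 and HOXC6 lay close together on chromosome 12, so that the count is not one of separate loci. Of 23 genes of origin licensing and firing, 3 (13%) were touched, MCM2 of the replicative helicase at 44.8%, GINS3 at 16.1% and CDC45 at 2.42%.

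In the remaining lists, 0% to 6.25% of the genes were touched, beside 11.9% of all genes. Among 415 olfactory receptors, 8 (1.93%) were touched, with OR2S2 at 100%, OR13J1 at 81.8% and OR4D1 at 59.3%, and among 503 genes of the ZNF series, 18 (3.58%), with ZNF467 at 43.2%, ZNF488 at 32.3% and ZNF705A at 30.4%. None of 53 clustered protocadherin genes was touched. Clustered genes are not separate loci, and 59.4% of all windows of 1 Mb had no shared interval. Touched olfactory receptor and histone genes also lay in part close together, as OR4D1 with OR4D2 and H3C6 with H3C7. Of 80 cytosolic ribosomal protein genes, 3 (3.75%) were touched, RPL7A at 66.7%, RPL39L at 4.33% and RPL37A at 4.10%, and of 69 replication-dependent histone genes, 3 (4.35%), H3C7 at 100%, H3C6 at 29.4% and H2BC18 at 5.37%. The p53 targets had 1 of 27 genes, BTG2 at 37.2%, the colorectal cancer drivers 1 of 23, AXIN2 at 7.83%, and the type II cadherins with the SLITRK genes 1 of 16, CDH22 at 13.1%. Genes of these lists differ in length, with medians from 0.503 kb for histone genes to 138 kb for the cadherins and SLITRK genes, and a longer gene has more bases that can be touched.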

How the data were processed

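U-DNA-Seq was analysed for 15 libraries (2 biological replicates of 7 HCT116 conditions and 1 library of K562). Per the labels and the study's methods, reads were aligned to GRCh38 with BWA 0.7.17-r1194, duplicates were marked with Picard, SAMtools 1.9-50 was used, and ambiguously mapped reads and blacklisted segments were removed. With deepTools 3.2.1, the authors scaled enriched and input coverage to the genome (bins of 100 bp, smoothed over 5 kb). They deposited, for each library and each merged condition, the regions above a log2 threshold. Each region has an unlabelled log2 value, which was taken here as its mean. Thresholds were tuned by the authors for similar total lengths between replicates and merged data, so that total length is no result. The region files hold no read counts, and read numbers, input and mock samples were not used here.

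The regions were read as bins of 100 bp on chromosomes 1 to 22, and known bases, GC content and genes (GENCODE 44) came from a GRCh38 reference in whose chromosome lengths all region ends fitted. Covered shares were compared over libraries with two-sided exact permutation tests and Benjamini-Hochberg adjustment, over 2 tests for held-out replicates and over 5 for non-treated libraries, where 1 bin was added to the covered bases of each class. The tests were checked on simulated data. Python 3.11.15, NumPy 2.4.6 and matplotlib 3.10.9 were used. The loci named are the 10 longest intervals, the 5 longest clusters with at most 3 genes each, the 10 genes with the most shared bases, and in each gene list the 3 highest shares and all touched members of the repair and thymidylate lists. P-values measure only the spread between these libraries. CACNA1S and PANK4, outside these lists in the values given for them, were chosen after values were seen. The intervals, lists and tests were chosen with earlier results of these data known. Alternatives were other length limits, files, log2 limits, joined gaps, measures, GC windows, chromosome X, fewer conditions and libraries, and a replicate block. One, the 5FdUR_UGI_MMR replicate 1 file in place of the merged file, was added after seeing the data. The platform of each library is not given in the sources used here.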

Additional observations from a re-analysis of the deposited data

Results flagged for a closer look

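With 13 groups of 4 to 8 libraries examined by Dixon's ratio, of which chance marks about 1 in 20, 3 had a library far from the others. The 5FdUR_UGI_MMR replicate 2 library held 55.3% of the shared bases, while the other 7 drug-treated libraries held 82.5% or more. The same library had a log2 value of 0.802 over its autosomal share in the intervals chosen on replicate 1, beside 2.08 to 2.17 in the other 3 drug-treated replicate 2 libraries. WT replicate 2 had a mean log2 value of 0.388 in the shared intervals it called, beside 0.457 to 0.495 in the other 5 non-treated HCT116 libraries, and the lowest log2 value in that library, 0.25, was also below those of the others, 0.290 to 0.330. The part of that lower limit in the value was not tested.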

How the results depend on the processing

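The number of intervals, 12882, was 2710 at a minimum of 5 kb, 2927 from all 8 replicate files, 3368 with a log2 value of at least 0.25 and 30704 without the 5FdUR_UGI_MMR condition. The total length, 45.6 Mb, was 23, 6.59, 16.4 and 197 Mb under the same settings, 23.4 Mb from replicate 2 files only and 73.9 Mb without RTX_UGI. GC content, 46.8%, was 47.4% at 5 kb, 47.8% from all 8 files, 47.3% with the log2 limit and 47.5% with the 5FdUR_UGI_MMR replicate 1 file, moves above the SD of 0.426 between replicate sets. The touched share of genes, 11.9%, was 4.35%, 3.17% and 3.62% at 5 kb, from all 8 files and with the log2 limit. The non-treated comparison at equal GC content, -0.301, turned to 0.187, 0.396 and 0.273 in those 3 settings (adjusted p = 0.0312, 0.0391 and 0.0312, exact sign-flip permutation test) and was -0.260 with a non-treated log2 of at least 0.35 (adjusted p = 0.0625, exact permutation test), and the cause was not tested. Long against short intervals, 0.07, became 0.551 with the merged and 0.401 with the non-treated log2 limit, and 0.723 from all 8 files (adjusted p = 0.0625, exact permutation test). Inside against outside genes, -0.919, was -1.76, -2.20 and -1.96 at 5 kb, from all 8 files and with the merged log2 limit.

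Leaving out 1 non-treated replicate leaves 5 libraries, for which no p under 0.0625 is possible. The values then ranged from -3.65 to -3.55 against other bases, -0.321 to -0.274 at equal GC content, -2.15 to -2.09 for 4 against 1 condition, -0.970 to -0.886 inside against outside genes and 0.0285 to 0.0937 for long against short intervals. The held-out differences ranged from 5.37 to 5.83 and from 5.16 to 5.36 without 1 library. With the replicate block, only libraries of the held-out number, they were 5.39 and 5.41 (adjusted p = 0.0286, exact permutation test). Replicate numbers did not pair the samples over all conditions: the correlation of replicate differences in windows of 100 kb ran from -0.285 to 0.210 over 21 pairs of conditions, and exceeded 0.1 in 2. These 2 were the pairs of the same drug, 5FdUR_UGI with 5FdUR_UGI_MMR (0.195) and RTX_UGI with RTX_UGI_MMR (0.210). Pairs of different drugs ran from -0.285 to -0.175, and pairs with a non-treated condition from -0.0550 to 0.0429. The remaining alternatives kept direction and side of the threshold. Read numbers were not used, so that counting error in the shares of single libraries is not given, and 5 kb smoothing limits the edges of intervals.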

Other observations

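Chromosome X was covered at 9.83% in merged 5FdUR_UGI, 10.8% in 5FdUR_UGI_MMR, 6.22% in RTX_UGI and 6.86% in RTX_UGI_MMR, and the rule gave 0.401 Mb there. Of the shared bases on the autosomes, 8.97% lay within 5 Mb of a chromosome end, beside 7% of the known autosomal bases. The longest stretch between neighbouring shared intervals on a chromosome was 31.5 Mb.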
